A study of Mus musculus with 4 samples.

Results

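The TRiC/CCT chaperonin subunits are encoded by 8 genes, TCP1, CCT2, CCT3, CCT4, CCT5, CCT6A, CCT7 and CCT8. They were taken by gene name, as every non-control probe that the array design assigns to one of these names, which gave 13 of the 41000 probes and 8 of the 18760 named genes on the array. RNA came from H460, an established human lung carcinoma line. The cells had been given farnesol, an isoprenoid alcohol, at 250 µM for 4 h, or the vehicle dimethyl sulphoxide. The arrays used here hold no other genotype or treatment. Duplicate experiments (replicate 1 and replicate 2) each paired a farnesol RNA with its matched vehicle RNA, and each pair was hybridised on 2 arrays with exchanged dyes, so 4 arrays hold n = 2. The samples are labelled as mouse. They were read as human, since H460 is a human line by the protocols and the array's gene names are human.

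TRiC/CCT is the ATP-driven chaperonin of the cytosol, a barrel made of a pair of stacked rings in which every subunit holds a fixed place. It encloses newly made proteins that do not fold unaided, above all actins and tubulins, and also several proteins built on a WD40 propeller. Prefoldin hands unfolded actin and tubulin to it, phosducin-like proteins act as its cofactors, and the tubulin cofactors take over tubulin once it is released. The subunits are paralogues: in yeast, those corresponding to TCP1, CCT2, CCT4 and CCT5 bind ATP more tightly than those corresponding to CCT3, CCT6A, CCT7 and CCT8.

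Between 82.7% and 93.0% of spots in the farnesol channels, and between 88.9% and 91.2% in the vehicle channels, were well above background. Values below are log2 ratios of farnesol over vehicle within an array after loess normalization, and the median of all 28594 features tested was 0.01. A feature is a gene, read from its brightest probe, or a probe without a gene name. The epithelial markers KRT8, KRT18, KRT19, EPCAM and CDH1 were well above background in both channels of every array. But so were 8 of 9 markers of leukocytes, endothelium and fibroblasts, and none of the 9 was below background throughout. Each marker was counted by its best probe, and another probe of the leukocyte marker PTPRC was well above background on no array. This flag therefore does not separate cell types here. The median log2 ratio was -0.30 over the 5 epithelial markers and 0.09 over the 9 others, and their part in the values below was not tested. A smaller share of cells holding a transcript and less of it per cell cannot be told apart in such bulk RNA. Ratios normalized within an array do not measure the number of cells.

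All 8 subunits gave less signal in farnesol RNA than in vehicle RNA on 4 of 4 arrays, a pattern met by 21.8% of all features, while 20.9% were higher on 4 of 4 arrays. Their median log2 ratio was -0.73, a level 1.66-fold lower in farnesol-treated cells, with -0.72 in replicate 1 and -0.75 in replicate 2. Individual means ran between -1.25 for CCT2 and -0.39 for CCT8. No subunit passed limma's moderated test at a Benjamini-Hochberg adjusted p of 0.05, a call that 0% of features met in the lower direction and 0.0105% (3 features) in the higher. Without adjustment, 7 of 8 subunits had a limma p under 0.05 and were lower, against 10.8% of all features, and 3.71% of all features had such a p and were higher. The count was 6, without TCP1 (limma p 0.0519), when the replicate 2 array with farnesol in Cy3 was left out. With n = 2, an exact two-sided sign-flip permutation of a single gene's replicates cannot give a p below 0.5.

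**Figure D1:**
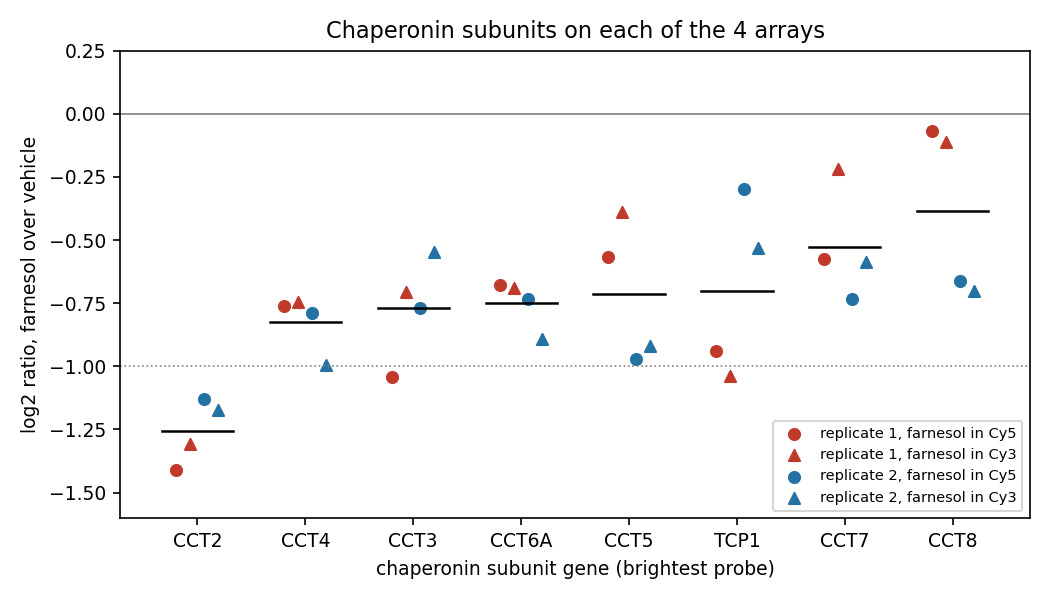
Log2 ratio of farnesol over vehicle for the 8 chaperonin subunits, with points for the 4 arrays and a bar for the mean of the replicates; the dotted line marks 2-fold lower. Every point lies below 0; CCT2 averaged -1.25 and CCT8 -0.39.

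The subunits matching the tightly ATP-binding side of the yeast ring include the one with the lowest log2 ratio, CCT2. CCT2 gave 5378 and 4950 units in farnesol RNA on the replicate 1 arrays and 5153 and 3822 units on the replicate 2 arrays, against 14290, 12238, 11260 and 8628 units in vehicle RNA on the same arrays. Every farnesol signal lay below every vehicle signal. Signals were not scaled between arrays, so overlap or its absence, here and for the subunits below, also depends on array brightness. The share of all features without overlap was not counted. Its log2 ratio averaged -1.25 ± 0.15 (SD, n = 2), 2.39-fold lower. The limma-moderated 95% interval was -1.52 to -0.98, and the limma adjusted p was 0.191 (unadjusted 0.000852). The fold was 2.56 in replicate 1 and 2.22 in replicate 2, which left farnesol-treated cells with 41.9% of the vehicle signal. CCT2 was the 1 subunit at least 2-fold lower in both replicates, a size met by 0.238% of all features.

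CCT4 gave 15683, 14758, 11738 and 8949 units in farnesol RNA, against 26573, 24769, 20294 and 17811 units in vehicle RNA, in the same order of arrays. The groups did not overlap. The mean log2 ratio was -0.82 ± 0.10 (SD, n = 2), with -0.75 in replicate 1 and -0.89 in replicate 2, and the limma adjusted p was 0.191. CCT5 gave 12490, 12905, 7254 and 6141 units in farnesol RNA, against 18516, 16873, 14226 and 11625 units in vehicle RNA. Across arrays the CCT5 signals of the groups overlapped, although the farnesol channel was the dimmer one on each array. Its log2 ratios were -0.48 in replicate 1 and -0.95 in replicate 2, a mean of -0.71 ± 0.33 (SD, n = 2) with a limma adjusted p of 0.257.

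TCP1, the subunit that gives the complex its older name, gave 4503, 4105, 5313 and 4260 units in farnesol RNA, against 8634, 8434, 6526 and 6149 units in vehicle RNA. The groups did not overlap, but the replicates differed more than for most subunits, at -0.99 in replicate 1 and -0.41 in replicate 2. The mean was -0.70 ± 0.41 (SD, n = 2), with a limma adjusted p of 0.296. The limma-moderated 95% interval of -1.30 to -0.11 borrows variance from all features and does not rest on that SD alone.

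On the other side of the ring, CCT3 gave 7168, 8109, 6223 and 5788 units in farnesol RNA, against 14777, 13235, 10614 and 8466 units in vehicle RNA. The groups did not overlap. Its log2 ratio was -0.77 ± 0.15 (SD, n = 2), 1.70-fold lower, with a limma adjusted p of 0.191. CCT6A gave 1555, 1557, 1111 and 833.4 units in farnesol RNA, against 2489, 2512, 1845 and 1544 units in vehicle RNA. Its groups overlapped across arrays, while the ratio within an array varied little, between -0.68 and -0.89. The mean was -0.75 ± 0.09 (SD, n = 2), the smallest SD among the 8 subunits, with a limma adjusted p of 0.191.

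CCT7 gave 4182, 4880, 2374 and 2661 units in farnesol RNA, against 6229, 5676, 3950 and 4000 units in vehicle RNA, so the groups overlapped across arrays. Its mean log2 ratio was -0.53 ± 0.19 (SD, n = 2), 1.44-fold lower, with a limma adjusted p of 0.229. CCT8 gave 2757, 2564, 1340 and 1103 units in farnesol RNA, against 2886, 2771, 2119 and 1794 units in vehicle RNA. Nearly the whole CCT8 difference lay in replicate 2, at -0.68, against -0.09 in replicate 1. The mean was -0.39 ± 0.42 (SD, n = 2), its limma-moderated 95% interval of -0.996 to 0.225 included 0, and its limma p was 0.134 unadjusted and 0.496 adjusted.

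**Figure D2:**
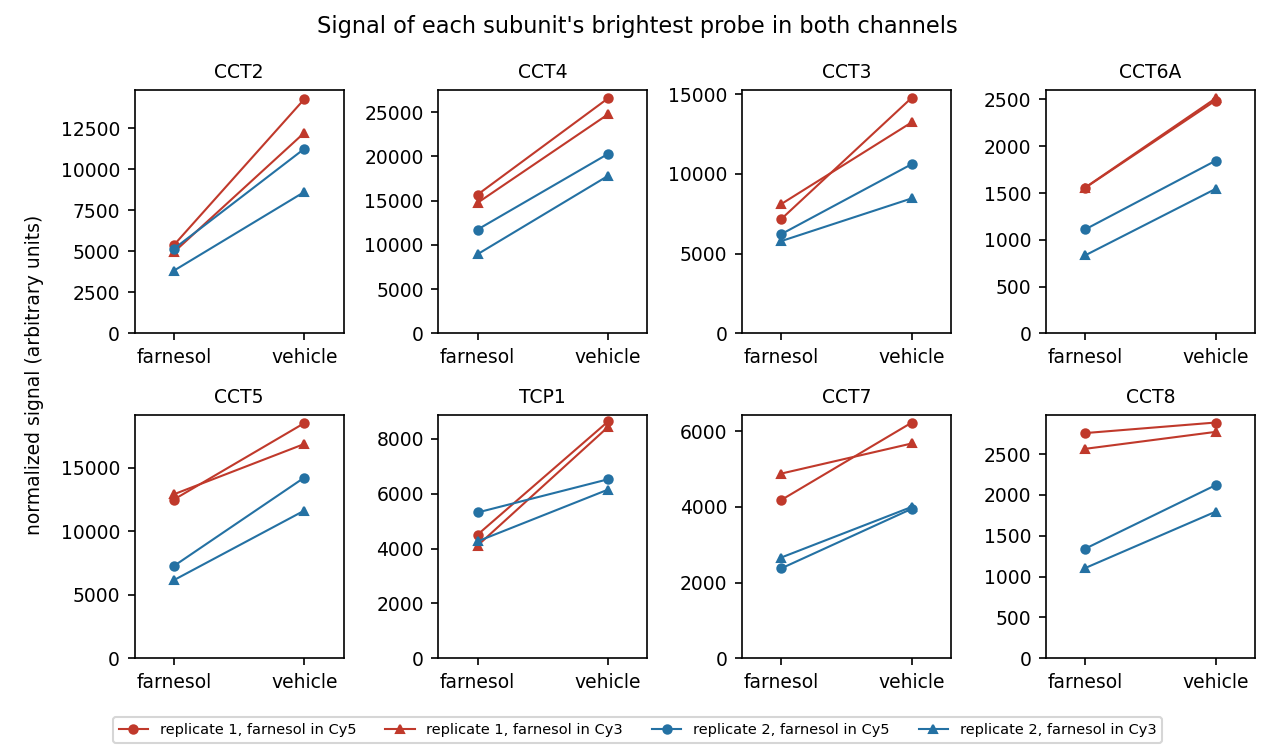
Normalized signal of each subunit's probe (arbitrary units) in farnesol RNA and in vehicle RNA, with a line joining both channels of each of the 4 arrays. Every line is lower at its farnesol end; for CCT8 the replicate 1 lines are nearly level, at 2757 and 2564 units in farnesol RNA against 2886 and 2771 in vehicle RNA.

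Values of both sides of the ring overlapped: CCT3 and CCT6A had lower means than CCT5 and TCP1. In the order of means, CCT2 was followed by CCT4, CCT3, CCT6A, CCT5, TCP1, CCT7 and CCT8. Of the 7 pairs of neighbours in this order, CCT2 and CCT4 were the 1 pair that kept its order in both replicates with a mean difference beyond its SD (-0.43 ± 0.24). For the pairs from CCT4 to CCT8 the order of neighbours turned round between replicates, so their ranks are not resolved. Relative to the median of the 8 subunits on the same array, CCT2 lay below on 4 of 4 arrays by -0.51 ± 0.19 (SD, n = 2), and so did CCT4, by -0.08 ± 0.05. CCT7 and CCT8 lay above that median on every array, by 0.21 ± 0.14 and 0.36 ± 0.37.

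The replicates ranked the subunits differently. TCP1 was second lowest in replicate 1 and highest of the 8 in replicate 2, and CCT5 was sixth lowest in replicate 1 and second lowest in replicate 2. The difference of replicate 2 minus replicate 1 was 0.58 for TCP1, -0.59 for CCT8 and -0.47 for CCT5. The median SD of the replicates was 0.17 over the 8 subunits and 0.08 over all features. The family median differed little between arrays all the same, at -0.72, -0.70, -0.75 and -0.80.

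**Figure D3:**
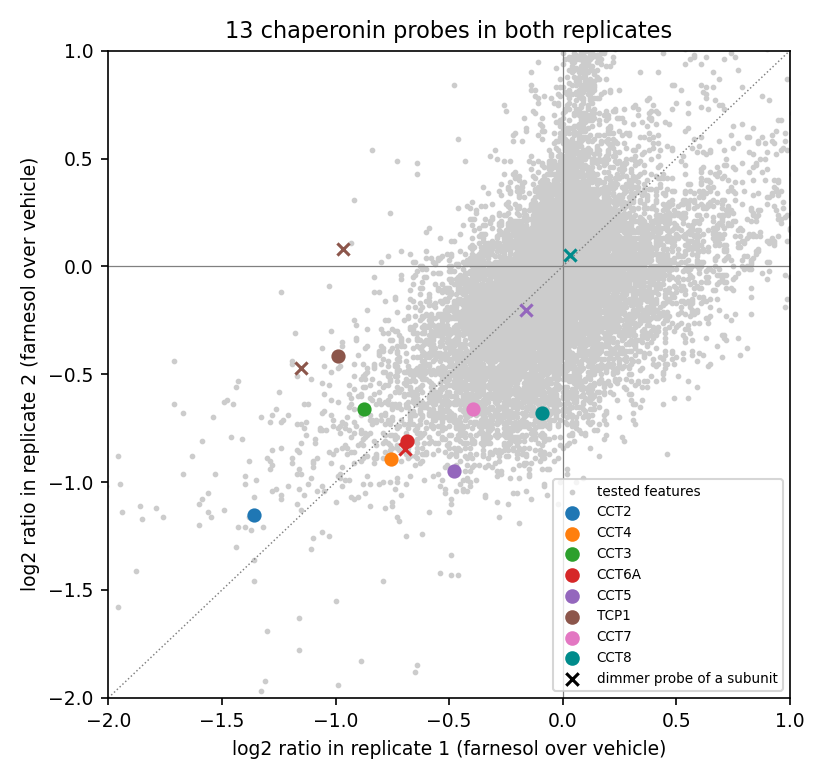
Mean log2 ratio of farnesol over vehicle in replicate 2 against replicate 1, with grey points for all features tested (those beyond the axes are not drawn), discs for the 8 subunits and crosses for their dimmer probes. TCP1 (-0.99 and -0.41 in replicates 1 and 2) and CCT8 (-0.09 and -0.68) lie on opposite sides of the line of equal values.

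All 8 subunits ranked among the lowest 10% of features, and 339 features (1.19%) had a mean below the subunits' median. All 8 also lay among the brightest 10% of features, where the median log2 ratio was -0.02. Loess holds that median near 0 at any brightness, so it does not show whether brightness plays a part. The offset in the background correction pulls ratios of dim probes towards 0, so the ranks above can favour bright features. With no offset, 118 features were at least 2-fold lower in both replicates and 282 higher, against 68 and 187 with it. The subunits' ranks without the offset, or among bright features alone, were not counted. Among those bright features 34.3% were lower on 4 of 4 arrays, 19.8% had an unadjusted limma p under 0.05 and were lower, and 0.664% were at least 2-fold lower in both replicates. Spot brightness depends on the probe and is not a level of RNA that can be set against another gene's. Over all features, 187 (0.654%) lay 2-fold or more above vehicle in both replicates and 68 lay 2-fold or more below it, and median centring in place of loess turned this split to 154 higher and 135 lower.

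Of the 13 probes, all passed the filter on dim spots, none was saturated, and 11 were lower in farnesol RNA on 4 of 4 arrays (22.5% of all probes). Taken singly, 10 of 13 had an unadjusted limma p under 0.05 (11.0% of all probes were so and lower). Further probes existed for TCP1, CCT5, CCT6A and CCT8. The other CCT6A probe gave -0.77 ± 0.11 (SD, n = 2), within the spread of the brighter one.

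For TCP1, the second probe gave -0.81 ± 0.48 (SD, n = 2), with -1.15 in replicate 1 and -0.47 in replicate 2. The third gave -0.97 in replicate 1 but 0.08 in replicate 2. Its signals were 267.4, 286.1, 367.2 and 296.7 units in farnesol RNA, against 524.5, 559.1, 357.2 and 272.3 units in vehicle RNA. The 3 TCP1 probes thus shared the direction in replicate 1, while in replicate 2 the dimmest of them lay on the other side of 0.

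The second probes of CCT5 and CCT8 were close to background. The dim CCT5 probe gave 81.5, 85.9, 74.0 and 67.6 units in farnesol RNA, against 89.0, 98.1, 82.3 and 80.6 units in vehicle RNA, and a log2 ratio of -0.18 ± 0.03 (SD, n = 2). The dim CCT8 probe gave 63.7, 71.7, 61.9 and 72.0 units in farnesol RNA, against 61.8, 70.7, 60.7 and 68.3 units in vehicle RNA. At 0.04 ± 0.01 (SD, n = 2) it was the 1 probe that was higher on 4 of 4 arrays. It was well above background on 2 of 4 arrays in each condition, and the offset of 50 in the background correction pulls ratios of such dim probes towards 0.

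In the authors' deposited table, which follows replicate 1 (r = 0.9999 across probes with the scanner's replicate 1 ratios, and 0.832 with those of replicate 2), 9 of the 13 probes have a row. All 9 have a ratio of farnesol over vehicle below 1, as do 57.8% of the table's 7018 rows. No CCT7 or CCT8 probe has a row, and neither has the dim CCT5 probe. The table covers 7018 of the array's 41000 probes, and its deposited copies are identical. As its ratios follow replicate 1, they add no further replicate to the values above. The authors' deposited table gives 0.395 for CCT2, 0.598 for CCT4, 0.556 for CCT3 and 0.728 for CCT5. For TCP1 the authors' deposited table gives 0.512, 0.432 and 0.457, and for CCT6A 0.631 and 0.623. Its p-values come with ratios of replicate 1 and do not measure the spread between replicates.

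Prefoldin, the complex that delivers clients, had all 6 subunits tested, and none passed the adjusted test. Its median log2 ratio was -0.16, and 1 of 6 members was lower on 4 of 4 arrays (21.8% of all features). That member was VBP1, at -0.29 ± 0.17 (SD, n = 2), whose other probe gave a value of 0.00. PFDN2 had 0.16 ± 0.27 and PFDN6, listed on the array as HKE2, had -0.60 in replicate 1 and 0.04 in replicate 2.

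Among 4 phosducin-like and related cofactors the median was -0.14 and none passed the adjusted test. PDCL3, a phosducin-like protein that binds the chaperonin, had a log2 ratio of -0.51 ± 0.05 (SD, n = 2) with a limma adjusted p of 0.192. Its 2 other probes gave -0.15 and -0.40, and all 3 probes were lower on 4 of 4 arrays. PDCL had 0.02 ± 0.13, PDCL2 -0.05 ± 0.02 and TXNDC9 -0.24 ± 0.44.

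The chaperonin's relatives had a median of -0.04, with 2 of 6 lower and 1 of 6 higher on 4 of 4 arrays (21.8% and 20.9% of all features), and none passed the adjusted test. CCT6B, the paralogue of CCT6A known mainly from testis, had 0.03 ± 0.08 (SD, n = 2). BBS10, a chaperonin-like protein of the Bardet-Biedl syndrome and listed as FLJ23560, had -0.29 ± 0.21. HSPD1, the chaperonin of mitochondria, had 0.08 ± 0.05 and 0.35 on its other probe, while its co-chaperonin HSPE1 had -0.64 in replicate 1 and 0.43 in replicate 2. Of the heat shock factors, HSF1 had -0.14 ± 0.06, HSF2 -0.25 ± 0.11 and HSF4 0.14 ± 0.08, none past the adjusted test.

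Of the 5 tubulin cofactors, 4 were lower on 4 of 4 arrays (21.8% of all features) and 2 had an unadjusted limma p under 0.05 and were lower (10.8%). Their median was -0.27 and none passed the adjusted test. TBCD, which handles beta tubulin, had -0.56 ± 0.11 (SD, n = 2) with -0.38 and -0.03 on its other probes, and TBCB, which handles alpha tubulin, had -0.27 ± 0.02.

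Among 13 tested actins, actin-related proteins and tubulins, 5 were lower and 3 higher on 4 of 4 arrays (21.8% and 20.9% of all features), and the median was -0.09. None passed the adjusted test. By brightest probe, the lowest were the alpha tubulins TUBA1B (listed as K-ALPHA-1), at -0.77 ± 0.20 (SD, n = 2), and TUBA4A (listed as TUBA1), at -0.57 ± 0.10. TUBA1C at -0.48 ± 0.02 and TUBA1A at -0.42 ± 0.13, singled out after their values were seen, were also lower on 4 of 4 arrays. The beta tubulin TUBB, likewise singled out, had -0.09 ± 0.09 on its brightest probe, while its other probes gave -0.82, lower on 4 of 4 arrays, and -0.01. The tubulins are close paralogues, and their probes may share targets.

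The highest were TUBB2A (listed as TUBB2), at 0.28 ± 0.22 (SD, n = 2), TUBB3 at 0.27 ± 0.13 and ACTG1 at 0.21 ± 0.06. The other probes listed as TUBB2 gave 0.21, 0.35 and -0.08, and those of ACTG1 gave 0.53 and 0.56. Both of these ACTG1 probes had 1.08 in replicate 1, against -0.02 and 0.04 in replicate 2. ACTB, the main cytoplasmic actin, had 0.08 ± 0.22 on its brightest probe, and its 3 other probes gave 0.23, 0.94 and 0.57. In that order they had 0.56, 1.34 and 0.98 in replicate 1, against -0.11, 0.54 and 0.16 in replicate 2. Of 16 other clients, mostly propeller proteins, 6 were lower and 1 was higher on 4 of 4 arrays (21.8% and 20.9% of all features), with a median of -0.06 and none past the adjusted test. The lowest was PLK1, a mitotic kinase, at -1.44 in replicate 1 and -0.56 in replicate 2. The other PLK1 probe gave -0.31. CDC20, an activator of the anaphase-promoting complex, had -0.23 ± 0.14 (SD, n = 2). GNB1, a G protein beta subunit, had -0.01 ± 0.02, though its other probe gave -0.48.

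**Figure D4:**
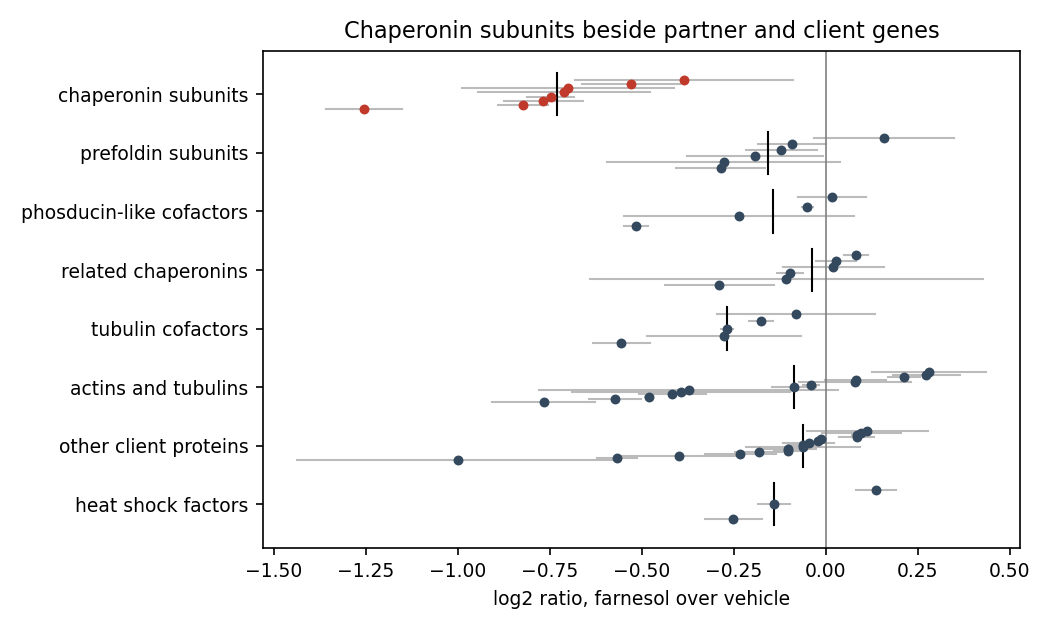
Mean log2 ratio of farnesol over vehicle for each tested gene of the chaperonin subunits and of the lists of cofactors, relatives and clients, with a grey line joining the values of both replicates and a black bar at each list's median. The 8 subunits have a median of -0.73, prefoldin -0.16 and the actins and tubulins -0.09.

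By Euclidean distance over the 4 array ratios to the subunits' median profile, the named genes most like the family were NET1 (0.068), TM4SF8 (0.072), FLJ10514 (0.076), C7orf30 (0.078) and RAB34 (0.080). The nearest subunit lay at 0.105 and the farthest, CCT2, at 1.06. Within the distance of CCT2 lay 3849 features (13.5%), a count set by CCT2 standing apart from the other subunits.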

How the data were processed

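RNA of farnesol- and vehicle-treated H460 cells was compared on 4 two-colour arrays. The deposited intensity values are mean spot and median background brightness from Agilent Feature Extraction (8.1.1.1 per the file headers). The deposited log10 ratios and processed intensities were background-subtracted and dye-normalized by that software, per the file headers. The deposited flags for brightness, saturation and outliers are that software's too. The authors' deposited table holds a linear ratio and a p-value per probe, with no program named.

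From the mean intensities, normexp (offset 50) and loess were applied in R 4.3.3 with limma 3.58.1. Control and outlying spots were dropped, arrays with farnesol in Cy3 were turned in sign, and dye-swap arrays were averaged. A probe was tested if well above background in the same condition on at least 1 array of each replicate, and the brightest probe stood for a gene (17871 named genes, 10723 unnamed probes). The limma test against 0 has 1 residual degree of freedom plus 1.81 from moderation, and was tested on simulated data. The number of arrays limits the precision.

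All subunits and the members of the cofactor lists could be named; of the client lists, the 3 largest in each direction with 4 arrays in 1 direction, plus CDC20, GNB1 and ACTB. The 5 nearest profiles were also named. Members and lists were chosen with earlier results of these data known. TUBB2C was not matched by name. The alternatives varied background correction, normalization, filters, probe rule, model, arrays and replicates. Gene positions and sequences are not used here.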

Additional observations from a re-analysis of the deposited data

How the results depend on the processing

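Under 19 other settings, 6 of which left every subunit value as reported, 100 subunit values differed from the reported ones, and all 100 were below 0. Settings that only left out arrays or replicates could not change a sign, since every subunit was already below 0 on 4 of 4 arrays. Only values from changed background correction, normalization or probe rule could have done so. The 7 subunits with an unadjusted limma p under 0.05 became 8 with median centring and in the fit of 4 arrays below. They became 6, without TCP1, when all probes of a gene were averaged (TCP1 p 0.0704), without the replicate 2 array with farnesol in Cy3 (0.0519) and on the arrays with farnesol in Cy5 alone (0.0530). Over 11 processing settings CCT2 ranged from -1.46 to -1.24 and CCT8 from -0.62 to -0.17. The 6 values past the adjusted p all came from a fit chosen after seeing the data, in which limma took the 4 arrays with an estimated correlation of 0.55 within replicates. There CCT2 (-1.25) had an adjusted p of 0.000883, CCT6A (-0.75) 0.00332, CCT4 (-0.82) 0.00354, CCT3 (-0.77) 0.0183, CCT5 (-0.71) 0.0190 and TCP1 (-0.70) 0.0361; CCT7 (0.056) and CCT8 (0.146) did not pass. That fit counted dye-swap arrays of the same RNA pair as separate observations, with 1 correlation for all features. Its p-values can therefore understate the spread between the replicates. The same fit called 2161 features lower and 728 higher, where 0 and 3 were called with n = 2. The planned fit with a dye term was not run, because with that term no correlation could be estimated. Without replicate 1 the subunits' median was -0.75 and without replicate 2 it was -0.72, values with no test.

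With no offset, 2 features were called lower and 63 higher, and 118 were at least 2-fold lower and 282 higher. With the scanner's processed signals these were 2, 58, 150 and 293. Median centring called 25 higher, had 135 at least 2-fold lower, and moved the subunits' median to -0.94. Leaving out 1 array called 7 or 6 higher (replicate 1, farnesol in Cy5 or in Cy3) and 5 or 6 (replicate 2, likewise). The arrays with farnesol in Cy5 alone called 5 higher, and those in Cy3 alone 15. The reported test is itself paired, since each ratio is of matched RNAs. Dim probes limit the second CCT5 and CCT8 values, which without the offset were -0.50 and 0.18.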
